A study of Mus musculus with 16 samples.

Results

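The 10 genes described here act in lipolysis and on the lipid droplet. They were taken from a written list by function, namely 3 lipases, 2 regulators of the first lipase and 5 droplet coat proteins, and they are 10 of 49066 gene symbols in the data. Brown adipocytes keep triglyceride in many small droplets and burn the fatty acids released from them to make heat. Adipose triglyceride lipase, hormone-sensitive lipase and monoglyceride lipase act in turn to strip the fatty acids from the glycerol backbone. Perilipins and CIDE proteins coat the droplet, govern the access of the lipases and shape droplet size, and adrenergic signals through protein kinase A release the brake that perilipin 1 sets.

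Brown adipose tissue from C57BL6/J mice was profiled by bulk sequencing of polyA RNA, with 4 libraries in each of 4 groups, which are WT and KO mice of each sex. Both copies of *Gdf15* are floxed in all 4 groups, and the genotypes differ in a Cre transgene that KO mice have and WT mice do not. Its *Ucp1* promoter limits the deletion of *Gdf15* to thermogenic adipocytes and spares the other cells of the tissue. No group with Cre and an intact *Gdf15* gene was sequenced. All mice ate a diet with 60% of its calories from fat for 12 weeks, from 6 to 18 weeks of age, and the study asks how the deletion acts in each sex.

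Levels are in TPM, a scale that divides the reads of a transcript by its length and sets the sum of each library to 1000000, so that genes can be compared with each other. The TPM of a gene is the sum over its annotated transcripts. The number of reads is not in the deposited values, so the depth is unknown and no counting interval is given. The libraries of a group are separately labelled animals, and a p-value measures a difference against the spread between these animals. Differences are on the log2(TPM + 0.5) scale, where a value of 1 is close to a doubling for a gene well above 0.5 TPM and more than a doubling of TPM for a gene near or below it, and a difference is called when its adjusted p in limma, corrected over all genes tested, is under 0.05.

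*Gdf15* was read first as a check of the labels. Its TPM was 0.368, 0.69, 1.55 and 3.81 in male WT replicates 1 to 4, and 0.0915, 0.0801, 0.255 and 0.272 in male KO replicates 1 to 4. Females had 0.0622, 0.311, 0.17 and 0.29 in WT and 0, 0, 0.0794 and 0 in KO. Every male KO library was below every male WT library, whereas 1 female KO library, replicate 3, was above female WT replicate 1. The log2 difference was -1.38 in males (exact two-sided permutation p = 0.0286, the smallest that 70 arrangements of 4 against 4 can give) and -0.43 in females (exact p = 0.0571). At levels this low the size is set by the value added before the log, and *Gdf15* was -0.98 in males and -0.24 in females with 1 in place of 0.5, and -2.26 and -1.32 with 0.1. In males the exact p was 0.0571 without male KO replicate 1 (-1.32), 2 (-1.31), 3 (-1.44) or 4 (-1.45), and in females the exact p was 0.0286 without female WT replicate 1 (-0.54).

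The tissue label was checked against 10 brown adipocyte markers. All 10 had a mean TPM of at least 1 and none was at 0 in any library. *Ucp1*, the uncoupling protein that defines the brown adipocyte, had a mean of 3674 TPM in male WT, 3755 in male KO, 2915 in female WT and 3489 in female KO. Of 7 white adipocyte markers, 4 reached a mean TPM of 1, and their summed level was 139 TPM in male WT, 160 in male KO, 121 in female WT and 99.3 in female KO.

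Some libraries stand apart. In female WT replicate 4, 17.7% of the TPM fell on transcripts without a match in the annotation, 16.5% on a single transcript, against 0.333 to 0.48% in the other libraries. Transcripts of the mitochondrial genome took between 34.5%, in female WT replicate 4, and 59.8%, in male WT replicate 1, and the level of every nuclear gene in TPM moves with that share. In female KO replicate 1 the most abundant transcript was one of *Gm29216*, with 8.6% of the TPM. In the other libraries it was a transcript of the mitochondrial genome or, in female WT replicate 4, the unmatched one. The summed TPM of 11 skeletal muscle markers was 4981 in male KO replicate 1, 4313 in female KO replicate 3, 2812 in male KO replicate 3 and 2294 in male WT replicate 2. It was 1639 in male WT replicate 1, 1545 in female WT replicate 2, and between 81.7 and 525 in the other 10 libraries. *Acta1* was the most abundant of these markers in female KO replicate 3 with 1128 TPM, and *Myh4* and *Tnni2* were at 0 in female WT replicate 1. The library names carry a prefix whose meaning the labels do not state. Male WT replicates 1 and 2 have prefix 5, male KO replicate 1 has prefix 10, and the other male libraries have prefix 9. Female WT replicate 1 and female KO replicate 1 have prefix 10, the other female WT libraries have prefix 8b, and female KO replicates 2, 3 and 4 have prefixes 5, 8b and 9. Male WT and female WT share no prefix, so sex and prefix cannot be told apart between the WT groups. With the prefix as a covariate, that comparison rests on the KO libraries.

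The median log2 difference of all genes was 0.16 for KO against WT in males and 0.10 in females, and scaling the libraries by median-of-ratios factors brought these medians to 0.00 and 0.01. A member whose difference is near the median of all genes therefore moved no more than the typical gene. Under that scaling the values of *Abhd5*, *Plin4*, *Plin5* and *Cidec* in males and of *Pnpla2*, *Plin2* and *Plin5* in females turn from positive to negative, and *Plin4* in females is -0.00.

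**Figure D1:**
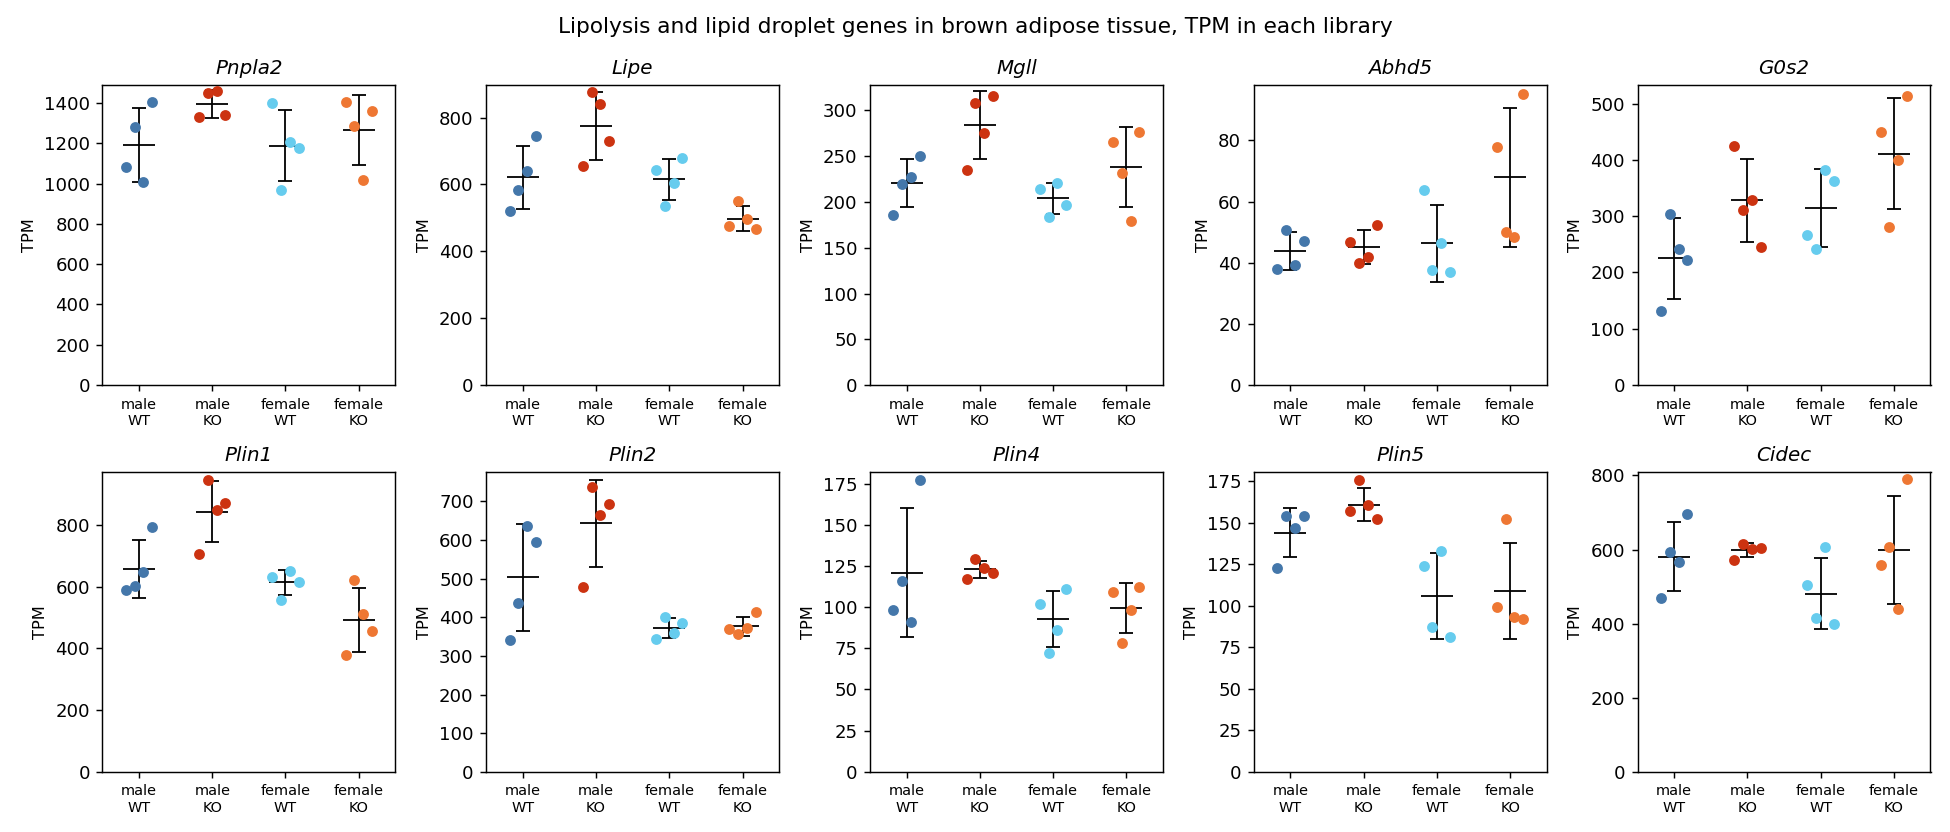
TPM of each member (vertical axis, from 0) in each of the 16 libraries, by sex and genotype; points are libraries and the bar is the mean with its SD (n = 4). *Lipe* and *Plin1* are higher on average in male KO than in male WT and lower on average in female KO than in female WT, and in none of the 10 genes do KO and WT separate fully in either sex.

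All 10 members were among the genes with high TPM in the tissue and passed the minimum mean of 1 TPM. With all annotated transcripts summed, *Pnpla2* had the highest level, with a mean of 1261 TPM (SD 165, n = 16) and rank 66 of the 12210 genes tested over all libraries. It was followed by *Plin1* with 651 (SD 152), *Lipe* with 628 (SD 123), *Cidec* with 565 (SD 102) and *Plin2* with 474 (SD 140). Within these 4, with all transcripts summed, the neighbours in the order did not differ beyond their spread, since *Plin1* was above *Lipe* in 12 of 16 libraries, *Lipe* above *Cidec* in 11 and *Cidec* above *Plin2* in 12. *G0s2* had a mean of 319 TPM (SD 98.4) and *Mgll* 237 (SD 42.4), and *G0s2* was the higher of these in 13 libraries. *Plin2*, in turn, was above *G0s2* in 12 libraries. The order is pooled over the groups and did not hold in every library. In female KO replicates 1 and 4 *Cidec* (559 and 790 TPM) was above *Lipe* (476 and 467) and *Plin1* (377 and 456). It lay between them in replicate 2 (608 against 551 and 623) and below both in replicate 3 (440 against 498 and 510). *Plin5* had 130 TPM (SD 30.9), *Plin4* 109 (SD 24.5) and *Abhd5* 50.8 (SD 15.9), at rank 1256, and *Abhd5* had 15.6 (SD 5.72) with only coding transcripts. *Plin5* was above *Plin4* in 11 libraries. *Pnpla2* over *Plin1*, *Mgll* over *Plin5* and *Plin4* over *Abhd5* held in 16 of 16 libraries. The place of *Pnpla2* rests on transcripts annotated as subject to nonsense-mediated decay. With only protein-coding transcripts summed it had a mean of 316 TPM (SD 68.7, n = 16) and was below *Plin1*, *Lipe* and *Cidec* in 16 of 16 libraries, while *Mgll* over *Plin5* and *Plin4* over *Abhd5* again held in 16 of 16. *Cidec* was then above *Plin2* in 16 of 16 as well, *Plin1* above *Lipe* in 15 and *Lipe* above *Cidec* in 10. The members also differed in how much they varied. The highest library was 1.51 times the lowest for *Pnpla2* and 1.77 times for *Mgll*, against 3.92 times for *G0s2* and 2.57 times for *Abhd5*. With only coding transcripts summed these were 2.17 for *Pnpla2*, 1.79 for *Mgll*, 3.92 for *G0s2* and 2.98 for *Abhd5*. The summed TPM of the 10 members was 4310 (SD 617, n = 4) in male WT, 5195 (SD 367) in male KO, 4034 (SD 374) in female WT and 4158 (SD 379) in female KO. With the mitochondrial genome removed and the rest rescaled, the sum ran from 6176 to 8958 in female WT and from 7151 to 8353 in female KO. In males the rescaled sum ran from 7731 to 10006 in WT and from 9126 to 10580 in KO, so these groups overlapped as well. No direction is therefore read from the sum in either sex.

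The first comparison asks how the deletion acts in males. Of the 10 members, 0 passed the adjusted threshold in limma, beside 1 of 12176 genes tested (0.00821%; 5 without male KO replicate 1 or male WT replicate 4, and 0 without male WT replicate 1 or 3 or male KO replicate 3), and 2 of 10, *Mgll* and *Plin1*, had an unadjusted p under 0.05, beside 18.7% of all genes. All 10 had a positive value, with a median of 0.28 against 0.16 for all genes, of which 79.9% were positive. In 0 of 10 members did the male KO and male WT libraries separate without overlap, beside 10.2% of all genes. In females, 0 of 10 members passed the adjusted threshold in limma, beside 0 of 12141 genes (0%; 9 without female KO replicate 2, 3 without female WT replicate 4, 2 without female KO replicate 1 and 1 without female WT replicate 2), and 0 of 10 had an unadjusted p under 0.05, beside 17.1% of all genes. The median of the members was 0.10, the same as that of all genes, with 8 members above 0 and 2, *Lipe* and *Plin1*, below. In 0 of 10 did the female groups separate, beside 8.08% of all genes.

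Whether the deletion acts differently in the sexes was tested by an interaction term, the male KO effect minus the female one, in a fit of all 16 libraries. In limma 0 of 10 members and 0 of 12210 genes (0%; 3 without male KO replicate 1 and 1 without female WT replicate 4) passed the adjusted threshold, and 2 of 10 members, *Lipe* and *Plin1*, had an unadjusted p under 0.05, beside 14.2% of all genes. For the mean KO effect over both sexes, 0 of 10 members passed in limma, beside 358 of 12210 genes (2.93%), and 2 of 10, *G0s2* and *Mgll*, had an unadjusted p under 0.05, beside 24% of all genes. The 358 genes were 315 higher and 43 lower in KO. Under median-of-ratios scaling a different number of genes was called, 234 higher and 222 lower. The count of 358 rests on single libraries. It was 31 without male KO replicate 3, 42 without male KO replicate 2, 47 without male WT replicate 3, 50 without female KO replicate 4, 51 without female KO replicate 1, 71 without female WT replicate 2, 89 without male WT replicate 1 and 91 without male KO replicate 4. It was 193 without male KO replicate 1, 201 without female WT replicate 3, 587 without female KO replicate 2, 862 without female KO replicate 3 and 1055 without male WT replicate 2. For female WT against male WT, 0 of 10 members passed in limma, beside 8 of 12210 genes (0.0655%), and 2 of 10, *Plin5* and *Plin2*, had an unadjusted p under 0.05, beside 4.66% of all genes. In 0 of 10 did the WT groups separate, beside 1.9% of all genes.

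**Figure D2:**
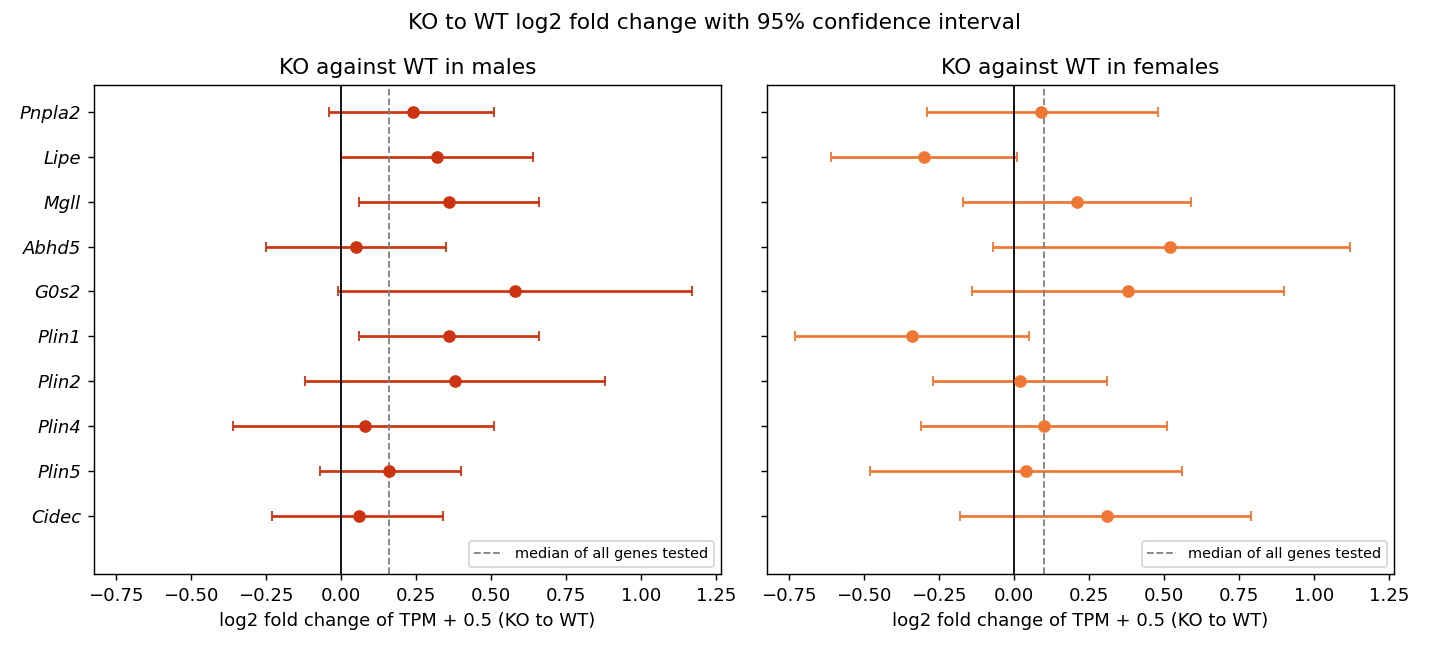
Log2 difference of TPM + 0.5 between KO and WT (horizontal axis) for each member, in males and in females, with its 95% confidence interval from limma; the dashed line is the median of all genes tested. In males the values run from 0.05 to 0.58, and in females *Lipe* (-0.30) and *Plin1* (-0.34) lie below 0; under median-of-ratios scaling *Abhd5*, *Plin4*, *Plin5* and *Cidec* turn negative in males, and *Pnpla2*, *Plin2* and *Plin5* in females.

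*Pnpla2* encodes adipose triglyceride lipase, which takes the first fatty acid from triglyceride (ENSMUSG00000025509, GRCm38 chromosome 7, 141455198 to 141460743). It was 1081, 1279, 1006 and 1406 TPM in male WT and 1330, 1449, 1461 and 1342 TPM in male KO. Male KO replicates 2 and 3 exceeded every male WT library, and the 4 male KO libraries lay closer together than the male WT ones. The limma difference in males was 0.24 (95% confidence interval -0.04 to 0.51, adjusted p = 0.313), 0.06 under median-of-ratios scaling and 0.40 with only coding transcripts. The interaction was 0.15 (adjusted p = 0.774), and 0.54 (0.421) with only coding transcripts. In females the means were 1189 TPM (SD 176, n = 4) in WT and 1266 (SD 174) in KO, and the difference of 0.09 (adjusted p = 0.781) becomes -0.02 under median-of-ratios scaling and -0.14 with only coding transcripts. Female and male WT did not differ beyond their spread in *Pnpla2*, with a log2 difference of -0.00 (interval -0.31 to 0.30).

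*Lipe* encodes hormone-sensitive lipase, the main diglyceride lipase of the adipocyte and a target of protein kinase A (ENSMUSG00000003123, GRCm38 chromosome 7, 25379527 to 25398710). In males it was 522, 583, 639 and 744 TPM in WT and 654, 876, 840 and 730 in KO. In females it was 643, 535, 603 and 679 TPM in WT and 476, 551, 498 and 467 in KO. Male KO replicates 2 and 3 were above every male WT library, and female KO replicates 1, 3 and 4 were below every female WT library, while female KO replicate 2 overlapped with WT. The difference was 0.32 in males (interval -0.00 to 0.64, adjusted p = 0.267) and -0.30 in females (interval -0.61 to 0.01, adjusted p = 0.306). Under median-of-ratios scaling these were 0.14 and -0.41. The interaction in *Lipe* was 0.62 (SE 0.19, interval 0.22 to 1.02, adjusted p = 0.218) and did not pass the threshold. It stayed between 0.54 and 0.71 when each library was left out in turn. Over both sexes the mean effect was 0.01 (interval -0.19 to 0.21, adjusted p = 0.962), and it turns to -0.13 under median-of-ratios scaling.

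*Mgll* encodes monoglyceride lipase, which frees the last fatty acid and glycerol (ENSMUSG00000033174, GRCm38 chromosome 6, 88724412 to 88828360). It was 186, 220, 227 and 250 TPM in male WT and 235, 308, 275 and 316 TPM in male KO. In females it was 214, 184, 221 and 197 TPM in WT and 266, 232, 179 and 276 in KO. In each sex 3 of 4 KO libraries were above every WT library of that sex, and the exceptions were male KO replicate 1 and female KO replicate 3, the lowest of the 16. The difference was 0.36 in males (interval 0.06 to 0.66, adjusted p = 0.225) and 0.21 in females (interval -0.17 to 0.59, adjusted p = 0.516). The mean effect of both sexes was 0.28 (SE 0.10, interval 0.06 to 0.51, adjusted p = 0.123), and 0.14 under median-of-ratios scaling. Without female KO replicate 3, one of the libraries with high muscle markers, it was 0.35 with an adjusted p of 0.0422, the only setting tried in which a member was called. Over the 11 other settings that keep all libraries the adjusted p was 0.109 to 0.493. Without male KO replicate 1, where muscle markers were highest, the mean effect was 0.33 (adjusted p = 0.101 in limma). The part of muscle in the mean effect was not tested. With the library prefix as a covariate it was 0.15 (adjusted p = 0.493).

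*Abhd5* encodes CGI-58, the co-activator that *Pnpla2* protein needs for full activity and that perilipin 1 holds back in the resting cell (ENSMUSG00000032540, GRCm38 chromosome 9, 122351608 to 122381524). In males it ranged from 37.8 to 50.6 TPM in WT and from 39.9 to 52.2 TPM in KO, and the groups overlapped almost completely. Females had 63.9, 37.7, 46.5 and 37 TPM in WT and 78, 50, 48.5 and 95.1 in KO. Female KO replicates 4 and 1 were the highest and second highest of all 16 libraries, while replicates 2 and 3 lay within the WT range. The difference was 0.05 in males (interval -0.25 to 0.35, adjusted p = 0.841) and 0.52 in females (interval -0.07 to 1.12, adjusted p = 0.336), and the male value turns to -0.12 under median-of-ratios scaling. The interaction was -0.47 (interval -1.13 to 0.19, adjusted p = 0.495).

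*G0s2* encodes a small protein that binds and inhibits adipose triglyceride lipase (ENSMUSG00000009633, GRCm38 chromosome 1, 193272161 to 193273217). It was 131, 304, 242 and 222 TPM in male WT and 424, 311, 328 and 246 TPM in male KO. In females it was 267, 242, 382 and 363 TPM in WT and 450, 281, 400 and 514 in KO. In each sex 3 of 4 KO libraries were above every WT library of that sex, and the lowest of the 16 values was male WT replicate 1. The difference was 0.58 in males (interval -0.01 to 1.17, adjusted p = 0.271) and 0.38 in females (interval -0.14 to 0.90, adjusted p = 0.398). The mean effect was 0.48 (SE 0.18, interval 0.09 to 0.87, adjusted p = 0.131), and 0.34 under median-of-ratios scaling. In WT mice *G0s2* was 0.52 higher in females on the log2 scale (interval -0.03 to 1.06, adjusted p = 0.959), which did not pass the threshold and was 0.12 (0.995) with the library prefix as a covariate.

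*Plin1* encodes the main droplet coat of adipocytes, which guards the droplet until protein kinase A phosphorylates it (ENSMUSG00000030546, GRCm38 chromosome 7, 79720218 to 79732903). In males it was 588, 602, 646 and 792 TPM in WT and 707, 944, 848 and 870 in KO. In females it was 630, 558, 652 and 615 TPM in WT and 377, 623, 510 and 456 in KO. Male KO replicates 2, 3 and 4 were above every male WT library, and female KO replicates 1, 3 and 4 were below every female WT library. The difference was 0.36 in males (interval 0.06 to 0.66, adjusted p = 0.225) and -0.34 in females (interval -0.73 to 0.05, adjusted p = 0.339). Under median-of-ratios scaling these were 0.19 and -0.45. The interaction was 0.70 (SE 0.21, interval 0.25 to 1.15, adjusted p = 0.218), between 0.58 and 0.82 with each library left out in turn, and it did not pass the threshold. The mean effect of 0.01 (adjusted p = 0.965) turns to -0.13 under median-of-ratios scaling.

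*Plin2* encodes a perilipin found on droplets of most cell types (ENSMUSG00000028494, GRCm38 chromosome 4, 86648386 to 86670060). It was 342, 436, 637 and 595 TPM in male WT and 479, 736, 664 and 692 TPM in male KO. Females had 344, 401, 359 and 386 TPM in WT and 369, 357, 371 and 413 in KO. In TPM the 8 female libraries lay in a narrow band, and 7 of the 8 male libraries were above all of them, with male WT replicate 1 as the exception. With the mitochondrial genome removed and the rest rescaled, the female libraries ran from 589 to 979. Male WT replicates 1 (849) and 2 (777) and male KO replicate 1 (926) then lay within that range. The KO difference was 0.38 in males (interval -0.12 to 0.88, adjusted p = 0.36) and 0.02 in females (interval -0.27 to 0.31, adjusted p = 0.944), and the female value turns to -0.09 under median-of-ratios scaling. Female WT against male WT gave -0.39 (interval -0.77 to -0.01, adjusted p = 0.959), which did not pass the threshold.

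*Plin5* encodes the perilipin of oxidative tissues, which ties droplets to mitochondria (ENSMUSG00000011305, GRCm38 chromosome 17, 56111601 to 56117596). It was 123, 154, 147 and 154 TPM in male WT and 124, 87.1, 133 and 81 TPM in female WT. Female WT replicates 2 and 4 were below every male WT library, and replicates 1 and 3 were above male WT replicate 1. The difference of female WT from male WT was -0.47 (SE 0.18, interval -0.85 to -0.08, adjusted p = 0.959), and -0.13 (0.995) with the library prefix as a covariate. The 2 WT groups share no prefix, so the covariate value rests on the KO libraries. In KO it was 157, 176, 161 and 152 TPM in males and 99.4, 152, 93.1 and 92.1 in females. The KO difference was 0.16 in males (adjusted p = 0.405), equal to the median of all genes, and 0.04 in females (adjusted p = 0.938), and these turn to -0.01 and -0.07 under median-of-ratios scaling.

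*Plin4* encodes a perilipin of nascent droplets in adipocytes (ENSMUSG00000002831, GRCm38 chromosome 17, 56100591 to 56109803), on the same chromosome and strand as *Plin5*. It ranged from 91 to 177 TPM in male WT, 117 to 129 in male KO, 72.1 to 111 in female WT and 78 to 112 in female KO. Male WT replicate 4 held the highest value of the 16, and male KO varied least. The KO differences of 0.08 in males (adjusted p = 0.842) and 0.10 in females (adjusted p = 0.772) turn to -0.10 and -0.00 under median-of-ratios scaling.

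*Cidec* encodes a CIDE protein that lets droplets fuse and grow (ENSMUSG00000030278, GRCm38 chromosome 6, 113424634 to 113435760). It ranged from 468 to 696 TPM in male WT, 571 to 616 in male KO, 398 to 606 in female WT and 440 to 790 in female KO. Female KO replicate 4 held the highest value of the 16. The KO difference was 0.06 in males (adjusted p = 0.814), which turns to -0.12 under median-of-ratios scaling, and 0.31 in females (interval -0.18 to 0.79, adjusted p = 0.458), which was 0.01 (0.992) with the library prefix as a covariate.

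Within a library prefix the male comparison has 3 KO and 2 WT libraries, and the females have 1 against 1 in prefix 10 and 1 KO against 3 WT in prefix 8b. Within male prefix 9 the log2 difference was 0.24 for *Lipe*, 0.31 for *Plin1*, 0.33 for *Mgll*, 0.34 for *G0s2*, 0.25 for *Pnpla2* and 0.18 for *Plin2*. It was 0.11 for *Plin5*, 0.04 for *Abhd5*, -0.03 for *Plin4* and -0.05 for *Cidec*. Within female prefix 10 it was -0.43 for *Lipe*, -0.74 for *Plin1*, 0.75 for *G0s2*, 0.31 for *Mgll* and 0.29 for *Abhd5*. Within female prefix 8b the values were -0.28 for *Lipe*, -0.25 for *Plin1*, 0.31 for *G0s2*, -0.16 for *Mgll* and 0.27 for *Abhd5*. The sign of the pooled value was thus held within each prefix for *Lipe*, *Plin1*, *G0s2* and *Abhd5*, and not for *Mgll* in female prefix 8b or for *Plin4* and *Cidec* in male prefix 9. For *Pnpla2* the female values were 0.00 and -0.13 in prefixes 10 and 8b, for *Plin2* 0.10 and -0.04, for *Plin4* 0.10 and 0.15, for *Plin5* -0.32 and -0.07, and for *Cidec* 0.15 and -0.08, so that the sign differed from the pooled one for *Plin5* in both and for *Pnpla2*, *Plin2* and *Cidec* in prefix 8b.

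A ratio of 2 genes within a library does not depend on how that library was scaled, and 8 such ratios were computed, with no test, 7 between members and 1 of *Cidec* to *Cidea*. The log2 ratio of the inhibitor *G0s2* to its target *Pnpla2* had a mean of -2.46 in male WT, -2.12 in male KO, -1.94 in female WT and -1.65 in female KO. The ratio of the co-activator *Abhd5* to *Pnpla2* had a mean of -4.77 in male WT, -4.95 in male KO, -4.71 in female WT and -4.27 in female KO. In each pair the KO and WT libraries overlapped, and for *Abhd5* to *Pnpla2* the KO difference was -0.19 in males and 0.44 in females. *Lipe* relative to *Pnpla2* differed by 0.08 between KO and WT in males and by -0.39 in females. *Mgll* relative to *Lipe* differed by 0.04 in males and 0.51 in females. Against *Plin1*, the female KO difference was 0.44 for *Plin4*, 0.38 for *Plin5* and 0.36 for *Plin2*, while the male values were -0.28, -0.20 and 0.02. *Cidec* relative to its relative *Cidea* differed by 0.22 in males and 0.15 in females. The groups overlapped in all 8 ratios in both sexes. These ratios depend on which transcripts are summed where *Pnpla2* is the divisor. With only transcripts annotated as protein coding, the mean log2 ratio of *G0s2* to *Pnpla2* was -0.35 in male WT, -0.17 in male KO, -0.04 in female WT and 0.49 in female KO, and its KO difference was 0.18 in males and 0.52 in females. The KO difference for *Abhd5* to *Pnpla2* was then -0.25 in males and 0.69 in females, and that for *Lipe* to *Pnpla2* was -0.17 in females and turned negative, -0.06, in males. The other 5 ratios stayed within 0.05 of the values above.

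The level of a gene rests on its annotated transcripts, and 44 transcripts of the members had a mean TPM of at least 1. Reads are shared out among overlapping transcripts by a model, so these levels are less certain than those of genes. For *Pnpla2*, 70.7% of the TPM (SD 4.03, n = 16) fell on Pnpla2-201, a transcript annotated as subject to nonsense-mediated decay, and 19.8% on the coding Pnpla2-202. For *Abhd5*, 63.7% fell on the transcript Abhd5-201, also annotated as subject to decay. *Mgll* rested on Mgll-204 with 97.2%, *Lipe* on Lipe-202 with 71%, *Plin2* on Plin2-201 with 76.8% and *Cidec* on Cidec-201 with 66.7%. *Plin1* was spread over 7 transcripts, of which Plin1-206 held 39.6%. In males, KO and WT did not overlap in 1 of 44 member transcripts, beside 7.65% of all transcripts tested. This was Plin5-202, with 56.8, 74.5, 88.8 and 94.2 TPM in WT and 98.1, 105, 106 and 95.3 in KO. The other *Plin5* transcript, Plin5-201, ranged from 58.2 to 79.4 TPM in male WT and from 54.7 to 71.1 in male KO and did overlap. In females, the groups did not overlap in 5 of 44 member transcripts, all lower in KO, beside 8.61% of all transcripts in either direction. The count is near that background, and the values of these transcripts are a description.

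In females, 3 of these 5 belong to *Lipe*, and reads are shared out among them by a model, so they are not separate events. Lipe-201 was 6.66, 7.02, 7.48 and 7.63 TPM in female WT and 5.14, 5.97, 5.67 and 5.58 TPM in female KO. Lipe-205 was 57, 51.4, 62.4 and 49.9 TPM in female WT and 27.9, 44.2, 41.2 and 37.5 TPM in female KO. Lipe-208 was 78.1, 60.2, 63.6 and 68.1 TPM in female WT and 44.8, 55.8, 52.8 and 43.5 TPM in female KO. Each of these is a minor transcript, and the main one, Lipe-202, had a mean of 419 TPM (SD 41.6, n = 4) in female WT and 352 (SD 35.2) in female KO and overlapped. The fourth was Pnpla2-206, a coding transcript of 985 bases, with 36.7, 86.1, 61.4 and 66.8 TPM in female WT and 1.31, 10.5, 12 and 1.48 in female KO. In males it was 21.5, 2.04, 61 and 67.3 TPM in WT and 27.2, 95.4, 117 and 100 in KO, so that male WT replicate 2 was as low as the female KO libraries. The last was Plin2-205, which ranged from 1.28 to 3.36 TPM in female WT and from 0 to 0.223 in female KO.

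**Figure D3:**
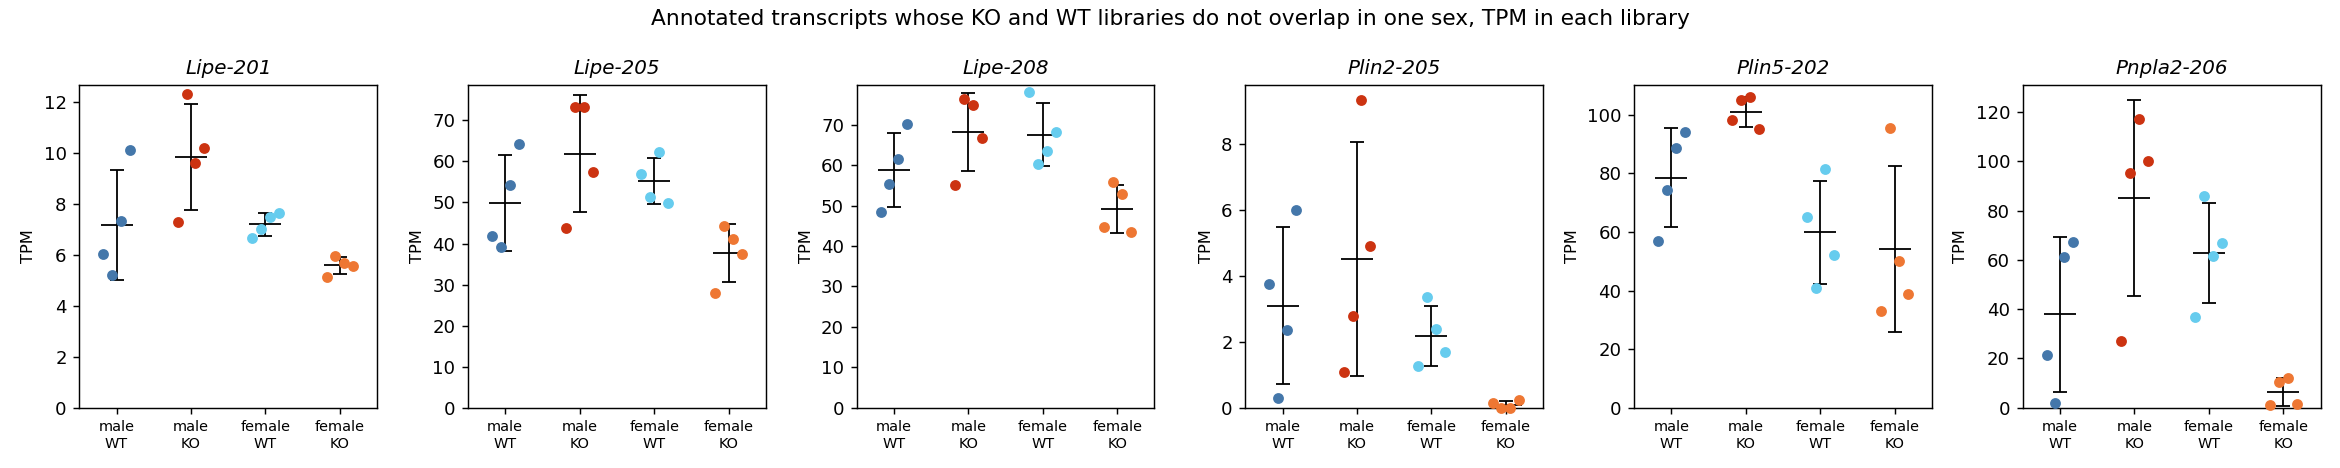
TPM of the 6 member transcripts in which KO and WT do not overlap in males or in females (vertical axis, from 0) in each library, by sex and genotype; points are libraries and the bar is the mean with its SD (n = 4). The 3 *Lipe* transcripts, Pnpla2-206 and Plin2-205 are lower in every female KO library than in every female WT library, and Plin5-202 is higher in every male KO library, from 95.3 TPM, than in every male WT library, up to 94.2 TPM.

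Promoter sequences, from 250 bases before to 50 after each start, were read from RefSeq for GRCm38.p6, which holds 14 entries for the 10 members. Both strands were searched for AGGTCA, the core of elements bound by nuclear receptors, for TGACG, the core of the cAMP response element, and for CACGTG, an E-box that reads the same on both strands. AGGTCA is in 16.3% of 32851 promoters of this length, TGACG in 20.8% and CACGTG in 7.15%. Of the 14 member entries, 4 hold AGGTCA (*Abhd5*, *Plin2* and both of *Plin5*), 3 hold TGACG (*Abhd5*, *G0s2* and 1 of 2 of *Mgll*) and 3 hold CACGTG (*Plin2*, 1 of 2 of *Lipe* and 1 of 2 of *Mgll*). Such a match is a description of letters and was not tested for binding. The window of *Lipe* shown is that in which Lipe-202 starts, chr7:25390063-25390362 on the minus strand, and that of *Plin1* is chr7:79732727-79733026 on the minus strand, in which transcripts with 57.9% of its TPM start. They are shown because *Lipe* and *Plin1* had KO differences of opposite sign in the sexes, and none of the motifs lies in either. The windows of *Plin5* overlap by 50 bases, chr17:56117249-56117548 for Plin5-202 and chr17:56117499-56117798 for Plin5-201, both on the minus strand, and are shown because only the transcript that starts in the first separated the male groups. It was 1 of 44 member transcripts to do so, beside 7.65% of all transcripts, with a KO minimum of 95.3 against a WT maximum of 94.2 TPM. No difference between the 2 promoters is read from this. That of *Plin2*, chr4:86670010-86670309 on the minus strand, is shown because *Plin2* and *Plin5* were the members with an unadjusted p under 0.05 between WT females and males. Capitals mark motif matches on either strand, and no match shown overlaps another.
Lipe: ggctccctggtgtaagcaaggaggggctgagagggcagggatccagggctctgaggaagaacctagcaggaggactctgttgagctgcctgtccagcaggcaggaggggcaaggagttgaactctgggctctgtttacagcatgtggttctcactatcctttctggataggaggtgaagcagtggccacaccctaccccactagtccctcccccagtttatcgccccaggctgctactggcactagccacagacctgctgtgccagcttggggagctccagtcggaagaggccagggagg
Plin1: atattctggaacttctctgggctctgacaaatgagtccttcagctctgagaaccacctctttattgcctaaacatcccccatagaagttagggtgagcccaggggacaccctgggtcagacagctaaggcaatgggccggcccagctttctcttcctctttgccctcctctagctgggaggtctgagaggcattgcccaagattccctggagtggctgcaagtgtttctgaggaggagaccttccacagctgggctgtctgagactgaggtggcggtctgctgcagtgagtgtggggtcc
Plin5 (Plin5-202): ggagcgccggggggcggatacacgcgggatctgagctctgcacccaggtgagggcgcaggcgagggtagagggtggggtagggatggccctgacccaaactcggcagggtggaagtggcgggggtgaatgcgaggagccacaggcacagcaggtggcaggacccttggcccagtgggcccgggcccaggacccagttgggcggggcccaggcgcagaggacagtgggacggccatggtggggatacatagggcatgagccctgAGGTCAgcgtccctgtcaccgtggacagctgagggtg
Plin5 (Plin5-201): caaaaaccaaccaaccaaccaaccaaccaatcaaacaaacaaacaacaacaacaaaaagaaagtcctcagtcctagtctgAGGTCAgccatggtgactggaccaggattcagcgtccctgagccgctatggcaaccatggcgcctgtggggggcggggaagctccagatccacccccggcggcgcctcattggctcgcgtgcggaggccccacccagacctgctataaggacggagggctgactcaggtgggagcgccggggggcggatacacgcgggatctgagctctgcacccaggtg
Plin2: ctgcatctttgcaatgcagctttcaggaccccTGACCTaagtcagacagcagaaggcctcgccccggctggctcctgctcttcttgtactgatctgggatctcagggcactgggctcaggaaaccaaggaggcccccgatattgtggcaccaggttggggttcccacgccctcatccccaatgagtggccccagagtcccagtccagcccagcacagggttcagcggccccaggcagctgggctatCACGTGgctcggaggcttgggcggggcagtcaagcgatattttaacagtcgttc

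For each member, the 3 genes with the most similar pattern were found by Pearson correlation of log2(TPM + 0.5) over 16 libraries after the mean of each group was removed, among 12210 genes. The points share their scaling within a library, and the values are a description. The nearest to *Pnpla2* were *Dedd*, *Lrp1* and *Phf12*, each with r of 0.95. *Lipe* was followed by *Rere* (0.95), *Smurf1* (0.94) and *Zc3h7b* (0.92), and *Mgll* by *Vwa8* (0.98), *Pkd2* (0.93) and *Slc25a24* (0.92). Among the regulators, *Abhd5* went with *Sdf2* (0.95), *Slc12a2* (0.94) and *Crem* (0.94), and *G0s2* with *Ddx51* (0.95), *Setmar* (0.90) and *Car15* (0.88). Among the coats, *Plin1* went with *Mfn2* (0.96), *Ywhag* (0.95) and *Yipf4* (0.94), *Plin2* with *Luzp1* (0.96), *Spred1* (0.91) and *Prkce* (0.90), and *Plin4* with *Etv3* (0.94), *Nufip2* (0.94) and *Lrrc32* (0.92). *Plin5* went with *Ptcd1* (0.98), *Mrps27* (0.97) and *L3hypdh* (0.97), and *Cidec* with *Slc30a5* (0.93), *Rbm45* (0.93) and *9530068E07Rik* (0.91). No other member was among the 3 nearest of any member. Between members, r was 0.79 for *Mgll* and *Cidec*, 0.76 for *Lipe* and *Plin1*, 0.69 for *Pnpla2* and *Mgll*, and lowest at -0.30 for *Plin1* and *Abhd5*.

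Other genes of the pathway were taken from 5 lists. Of their 76 genes, 72 were tested. In limma 0 of 72 passed the adjusted threshold in males, in females, in the interaction and in WT mice by sex, and at an unadjusted p under 0.05 there were 16, 17, 11 and 4, which is 22.2%, 23.6%, 15.3% and 5.56%, beside 18.7%, 17.1%, 14.2% and 4.66% of all genes. For the mean KO effect 5 of 72 passed, beside 2.93% of all genes, and 17 (23.6%) had an unadjusted p under 0.05, beside 24% of all genes. Among 24 tested genes of the hormonal control of lipolysis (26 listed), 3 were higher in KO and 1 was lower. *Pde4b*, a phosphodiesterase that breaks down cAMP, rose by 0.63 (SE 0.12, adjusted p = 0.0213). It was 4.51, 4.02, 3.01 and 3.98 TPM in male WT and 5.29, 5.87, 7.7 and 6.87 TPM in male KO. In females it was 2.86, 3.13, 4.07 and 4.2 TPM in WT and 7.72, 4.65, 5.17 and 5.27 TPM in KO. On the TPM scale every KO library was thus above every WT library of either sex. The closest WT value, 4.51, was from male WT replicate 1, where mitochondrial transcripts took 59.8%, and TPM moves with that share. Whether the order of the *Pde4b* libraries holds without the mitochondrial genome was not tested. Within a sex, KO and WT also separated in 10.2% of genes for males and 8.08% for females. *Gnai2*, the inhibitory G protein subunit, rose by 0.56 (SE 0.12, adjusted p = 0.0313), with 8 of 8 KO libraries above the mean of WT of their sex, and *Npr1*, the natriuretic peptide receptor, rose by 0.57 (SE 0.14, adjusted p = 0.0487), also with 8 of 8. *Insr*, the insulin receptor, which restrains lipolysis, fell by 0.38 (SE 0.07, adjusted p = 0.0235), with 8 of 8 KO libraries below the mean of WT of their sex. Among 12 transcription factors of lipid genes, *Ppara*, a nuclear receptor that drives genes of fatty acid use, fell by 0.67 (SE 0.15, adjusted p = 0.0313), with 8 of 8 KO libraries below that mean. These genes were picked by the test on the same libraries. The counts of 8 of 8 and the order of the *Pde4b* libraries therefore add no separate support. The sign of these 5 was kept under median-of-ratios scaling, where *Npr1* had an adjusted p of 0.0539 and was not called, in a range from 0.0198 to 0.235 over the settings that keep all libraries; without the trend it was 0.0512. With no TPM minimum 4 of the 5 were not called, *Pde4b* (adjusted p = 0.0602), *Gnai2* (0.0763), *Npr1* (0.112) and *Ppara* (0.084), at log2 differences as printed above. With the replicate number as a block the same 4 were not called, *Pde4b* (adjusted p = 0.0534), *Gnai2* (0.0722), *Npr1* (0.0813) and *Ppara* (0.0622), again at those differences.

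With a library left out the differences changed little, between 0.56 and 0.67 for *Pde4b*, -0.42 and -0.35 for *Insr*, 0.49 and 0.63 for *Gnai2*, 0.51 and 0.65 for *Npr1* and -0.75 and -0.60 for *Ppara*, while the adjusted p crossed the threshold. The call of *Pde4b* was lost without male WT replicate 3 (adjusted p = 0.0548) or male KO replicate 3 (0.0566). That of *Insr* was lost without male WT replicate 3 (0.0548), male KO replicate 2 (0.0564), male KO replicate 3 (0.0567) or female KO replicate 1 (0.0574). That of *Gnai2* was lost without male WT replicate 1 or 3, male KO replicate 2, 3 or 4, female WT replicate 2 or female KO replicate 1 or 4, with an adjusted p from 0.0604 to 0.0734. That of *Ppara* was lost without male WT replicate 1 or 3, male KO replicate 1, 2 or 3, female WT replicate 3 or female KO replicate 1 or 4, with an adjusted p from 0.0525 to 0.0735. That of *Npr1* was lost without male WT replicate 1, 3 or 4, male KO replicate 1, 2, 3 or 4, female WT replicate 2, 3 or 4 or female KO replicate 1 or 4, with an adjusted p from 0.0564 to 0.108. With the library prefix as a covariate the difference was 0.66 for *Pde4b* (adjusted p = 0.105), -0.44 for *Insr* (0.0579), 0.45 for *Gnai2* (0.187), 0.41 for *Npr1* (0.235) and -0.80 for *Ppara* (0.0598).

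In the lists without a call, the genes with the smallest p are given as values. Of 16 tested other droplet proteins (17 listed), 14 were higher for the mean KO effect with a median of 0.16, led by *Cavin1* with 0.36 (adjusted p = 0.0649; 0.0471 under median-of-ratios scaling, 0.0481 with coding transcripts, in a range from 0.0471 to 0.315 over the settings that keep all libraries) and *Hsd17b11* with 0.31. Of 7 other lipid hydrolases, 1 was higher, with a median of -0.05, led by *Abhd12* with 0.26 and *Ces1f* with -0.24. Of 13 tested genes for handling fatty acids and glycerol (14 listed), 9 were higher, with a median of 0.14, led by *Fabp5* with 0.48 and *Gpat3* with 0.40. *Cavin1* was called without female WT replicate 1 (adjusted p = 0.041), male WT replicate 2 (0.0393), male WT replicate 4 (0.0413) or female KO replicate 3 (0.0494), and *Fabp5* without male KO replicate 1 (0.0432). The hormonal list had 12 of 24 higher (median -0.00) and the transcription factors 9 of 12 (median 0.15), beside a median of 0.13 for all genes. By sex, the smallest p in males were those of *Plin3* (0.44) and *Cavin1* (0.42), *Ces1f* (-0.43) and *Pnpla3* (0.38), *Pde4b* (0.66) and *Insr* (-0.32), *Fabp5* (0.49) and *Lpin1* (0.54), and *Ppard* (0.35) and *Ppargc1a* (-0.31). In females they were *Hsd17b11* (0.52) and *Cavin1* (0.31), *Pnpla3* (-1.05) and *Abhd12* (0.36, and -0.12 with only coding transcripts), *Npr3* (-1.57) and *Pde4b* (0.60), *Lpin1* (-1.38) and *Acsl5* (-0.79), and *Ppara* (-0.95) and *Klf15* (0.95). In the interaction they were *Plin3* (0.73) and *Rab18* (0.57), *Pnpla3* (1.44) and *Lipa* (0.48), *Npr3* (2.07) and *Adora1* (0.77), *Lpin1* (1.93) and *Acsl5* (1.14), and *Klf15* (-1.18) and *Srebf1* (0.93). In female WT against male WT they were *Hilpda* (-0.53) and *Cideb* (-0.44), *Lipa* (-0.15) and *Abhd12* (-0.14), *Irs1* (0.65) and *Pde4d* (0.58), *Fabp4* (-0.36) and *Agpat2* (-0.34), and *Cebpa* (-0.21) and *Nr1h3* (-0.20), of which *Cideb* (0.06), *Lipa* (0.12), *Abhd12* (0.14) and *Nr1h3* (0.13) turn positive with the library prefix as a covariate, and *Abhd12* (0.06) also with only coding transcripts. With a library left out, *Pnpla3* ran from 0.22 to 0.52, *Fabp5* from 0.33 to 0.75 and *Lpin1* from 0.37 to 0.80 in males. In females *Pnpla3* ran from -1.37 to -0.63, and *Klf15* was 0.30 with the prefix covariate. For the mean KO effect *Gpat3* ran from 0.25 to 0.50, and was 0.16 with that covariate. Between the WT sexes *Hilpda* ran from -0.66 to -0.28, *Cideb* from -0.57 to -0.23 and *Agpat2* from -0.46 to -0.23.

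Markers of other cell types moved with the groups, and in bulk tissue a change in the number of cells and a change in RNA per cell cannot be told apart. Of 13 macrophage markers, 11 were tested in males, and all 11 were higher in KO, with a median of 0.98 and 8 of 11 without overlap between the groups, beside 10.2% of all genes. Their summed TPM was 45.3, 87, 57.1 and 87 in male WT, 115, 167, 130 and 169 in male KO, 68.9, 73.8, 114 and 53.2 in female WT and 114, 74.2, 80.1 and 105 in female KO, with *Lyz2* the most abundant and no marker at 0. All 8 fibroblast and progenitor markers were higher in male KO, with a median of 0.68, and their summed TPM was 130, 183, 115 and 204 in male WT, 246, 255, 251 and 247 in male KO, 165, 163, 219 and 166 in female WT and 256, 156, 200 and 195 in female KO, with *Col3a1* the most abundant in 15 of 16 libraries. All 6 endothelial markers were higher in female KO, with a median of 0.73, and their summed TPM was 184, 131, 173 and 195 in female WT, 431, 229, 227 and 315 in female KO, 144, 265, 173 and 207 in male WT and 224, 256, 238 and 243 in male KO. For the mean KO effect 4 of 10 macrophage, 2 of 6 endothelial and 2 of 8 fibroblast markers were called higher in limma, beside 2.93% of all genes called in either direction, and 3, 2 and 2 under median-of-ratios scaling. These were *Cd68* (0.77), *C1qb* (0.73), *Cd9* (0.73), *C1qa* (0.65), *Cdh5* (0.65), *Tie1* (0.64), *Pi16* (0.89) and *Col1a2* (0.64), named after their values were seen. The 11 muscle markers were 0 of 11 called, with a median of 0.48 in males and 1.09 in females. The 10 brown adipocyte markers had a median of -0.06 in males and 0.27 in females with 0 of 10 called, and the 6 pan-adipocyte markers -0.02 and 0.23 with 0 of 6 called, where 3 and 4 genes of these lists are also in the lists of the pathway. The summed TPM of the 6 neutrophil markers had group means from 2.96 to 6.15, that of the 8 lymphocyte markers from 2.27 to 3.24, none of them at a mean of 1, and that of the 6 nerve and Schwann cell markers from 86 to 180. The part of these cell types in the values of the members was not tested.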

How the data were processed

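The authors deposited TPM per transcript for 16 polyA RNA libraries of brown adipose tissue; their processing notes name TruSeq stranded libraries, kallisto 0.46.2 and GRCm39. Of the 137438 transcript identifiers, 135051 matched GENCODE M21 (GRCm38) by identifier without version, 37 with it, and 2387 did not match. TPM was summed over transcripts, giving 49130 gene identifiers and 49066 symbols. Depth is not in the file. Genes whose mean TPM reached 1 were compared on log2(TPM + 0.5) with limma 3.58.1 (trend, two-sided, Benjamini-Hochberg over all genes tested, threshold 0.05), in 8 libraries within a sex and in 16 for the interaction, the mean effect and the WT sexes. *Gdf15* had an exact permutation test. The fit was also run on simulated data, and the outcome is not given here. The 10 members and the other lists (16 lists in all) were chosen with earlier results of these data known. Of a list, genes past the threshold were named (at most 4, smallest p first), or else the 2 with the smallest p; the 3 genes nearest a member were chosen by correlation; transcripts were named because their groups did not overlap, after their values were seen. Whether replicate numbers pair samples was checked by correlating deviations from group means. Alternatives were the pseudocount, the TPM minimum, 3 scalings (removal of unmatched transcripts was chosen after seeing the data), coding transcripts, variance model, replicate block, library prefix, all libraries in a single fit, and leaving out each library. Calculations used R 4.3.3, Python 3.11.15, pandas 2.3.3, numpy 2.4.6 and matplotlib 3.10.9.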

Additional observations from a re-analysis of the deposited data

Results flagged for a closer look

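Of 100 groups of 4 libraries checked, 6 held a library whose gap to its nearest neighbour passed Dixon's critical value, where chance marks about 1 in 20 groups and would give 5. *Plin5* was 152 TPM in female KO replicate 2, against 92.1 to 99.4 TPM in the other female KO libraries. The log2 ratio of *Plin2* to *Plin1* was -0.562 in male KO replicate 1, and that of *Cidec* to *Cidea* was -0.916 in female KO replicate 4, each far from the other libraries of its group. Unmatched transcripts took 17.7% of the TPM in female WT replicate 4. The summed TPM of skeletal muscle markers was 1545 in female WT replicate 2 and 4313 in female KO replicate 3.

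The male and female KO effects differed at an unadjusted p under 0.05 in 2 of 10 members, beside 14.2% of all genes, so the count is near the background. The interaction was 0.62 for *Lipe* and 0.70 for *Plin1*, and each had an adjusted p of 0.218 in limma, so neither passed the correction over all genes. For *Lipe*, 2 of 4 male KO libraries were above every male WT library and 3 of 4 female KO libraries were below every female WT library; for *Plin1* it was 3 of 4 and 3 of 4.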

How the results depend on the processing

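The counts of genes past the threshold, the differences of the members and of the genes named from the pathway lists, and *Gdf15* were recomputed with 1 choice changed at a time, and the ratios with coding transcripts only, save that unmatched transcripts were removed only together with the mitochondrial genome. For *Gdf15* only the pseudocount and the libraries were varied. Transcript levels and correlations were not recomputed, and single cell-type markers were not recomputed with a library left out. Among the differences of members and pathway genes, *Gdf15* not counted, 1080 kept their direction and their side of the threshold over the other settings, 50 reversed, 15 were no longer past it and 2 were newly past it; with a library left out these were 1225 kept, 31 reversed, 34 no longer past and 6 newly past. Of 24 ratio differences 2 changed sign, *Lipe* to *Pnpla2* in males (-0.06) and *Abhd5* to *Pnpla2* between the WT sexes (-0.04). *Lipe* to *Pnpla2* went from -0.39 to -0.17 in females and from -0.01 to -0.22 between the WT sexes. *Abhd5* to *Pnpla2* in females went from 0.44 to 0.69, where the replicate SD was 0.22 in WT and 0.36 in KO. That move was not beyond the larger of these SDs. The cause was not tested. With few mice per group the intervals are wide, TPM carries no depth from which to judge low values, and the prefix covariate leaves few libraries within a prefix. Between the WT sexes, which share no prefix, the covariate value rests on the KO libraries.

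In males the number of genes past the threshold in limma (1, with 2280 at an unadjusted p under 0.05) was 2 with pseudocount 0.1, 0 with no TPM minimum, 7 with median-of-ratios scaling, 12 without the mitochondrial genome and 12 without it and unmatched transcripts, 18 with coding transcripts, 6 with the prefix and 38 with all 16 libraries in a single fit, and 0 to 5 with a library left out. In females (0, with 2075 unadjusted) it was 8 with the prefix and 5 with all 16 libraries, and 0 to 9 with a library left out. The interaction (0, with 1735 unadjusted) gave 1 with no trend and 0 to 3 with a library left out. The mean KO effect (358) gave 54 with no TPM minimum, 177 with a minimum of 5, 543 without mitochondrial and unmatched transcripts, 719 with coding transcripts, 12 with the prefix, and 31 to 1055 with a library left out. The WT sexes (8) gave 6 to 12 with a library left out. Members past the threshold stayed at 0 in limma over all settings, except 0 to 1 for the mean KO effect with a library left out.

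Replicate numbers were tried as a block. Deviations of KO and WT libraries of the same number correlated with r of 0.19, -0.08, 0.04 and 0.35 in males and 0.15, -0.12, -0.08 and 0.06 in females, so the numbers were not used as pairs. With the replicate block 0 genes passed in limma in males, 1 in females and 60 for the mean KO effect.

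In males, median-of-ratios scaling reversed *Abhd5* (-0.12), *Plin4* (-0.10), *Plin5* (-0.01) and *Cidec* (-0.12); removing the mitochondrial genome, with or without unmatched transcripts, *Abhd5* (-0.05), *Plin4* (-0.03) and *Cidec* (-0.05); the prefix, *Plin4* (-0.03) and *Cidec* (-0.05). In females, median-of-ratios scaling reversed *Pnpla2* (-0.02), *Plin2* (-0.09) and *Plin5* (-0.07); removing the mitochondrial genome *Plin2* (-0.02), and unmatched transcripts too *Pnpla2* (-0.06), *Plin2* (-0.13), *Plin4* (-0.05) and *Plin5* (-0.12); coding transcripts *Pnpla2* (-0.14), *Plin2* (-0.03) and *Abhd12* (-0.12); the prefix *Pnpla2* (-0.08) and *Plin5* (-0.17). In the interaction, removing mitochondrial and unmatched transcripts reversed *Plin4* (0.02) and the prefix *G0s2* (-0.23).

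For the mean KO effect, median-of-ratios scaling reversed *Lipe* (-0.13), *Plin1* (-0.13), *Plin4* (-0.05) and *Plin5* (-0.04); removing the mitochondrial genome *Lipe* (-0.07) and *Plin1* (-0.07), and unmatched transcripts too *Lipe* (-0.12), *Plin1* (-0.12), *Plin4* (-0.04) and *Plin5* (-0.03); the prefix *Lipe* (-0.04). Between the WT sexes, median-of-ratios scaling reversed *Lipe* (0.05), removing the mitochondrial genome *Abhd5* (-0.03), unmatched transcripts too *Lipe* (0.02), and coding transcripts *Abhd12* (0.06). The prefix reversed *Lipe* (0.12), *Mgll* (0.23), *Plin1* (0.14), *Cidec* (0.11), *Cideb* (0.06), *Lipa* (0.12), *Abhd12* (0.14) and *Nr1h3* (0.13).

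With a library left out, in males they ran from 0.16 to 0.32 for *Pnpla2*, 0.24 to 0.41 for *Lipe*, 0.28 to 0.45 for *Mgll*, -0.02 to 0.12 for *Abhd5*, 0.34 to 0.74 for *G0s2*, 0.30 to 0.45 for *Plin1*, 0.21 to 0.52 for *Plin2*, -0.04 to 0.28 for *Plin4*, 0.09 to 0.20 for *Plin5* and -0.04 to 0.15 for *Cidec*. In females they ran from -0.00 to 0.19 for *Pnpla2*, -0.37 to -0.25 for *Lipe*, 0.13 to 0.34 for *Mgll*, 0.34 to 0.69 for *Abhd5*, 0.26 to 0.56 for *G0s2*, -0.46 to -0.22 for *Plin1*, -0.02 to 0.06 for *Plin2*, -0.01 to 0.21 for *Plin4*, -0.13 to 0.16 for *Plin5* and 0.16 to 0.44 for *Cidec*. In the interaction they ran from 0.04 to 0.24 for *Pnpla2*, 0.54 to 0.71 for *Lipe*, 0.02 to 0.24 for *Mgll*, -0.64 to -0.29 for *Abhd5*, -0.04 to 0.36 for *G0s2*, 0.58 to 0.82 for *Plin1*, 0.19 to 0.50 for *Plin2*, -0.14 to 0.18 for *Plin4*, 0.01 to 0.29 for *Plin5* and -0.39 to -0.11 for *Cidec*. For the mean KO effect they ran from 0.12 to 0.22 for *Pnpla2*, -0.03 to 0.05 for *Lipe*, 0.24 to 0.35 for *Mgll*, 0.20 to 0.37 for *Abhd5*, 0.36 to 0.57 for *G0s2*, -0.05 to 0.07 for *Plin1*, 0.11 to 0.27 for *Plin2*, 0.03 to 0.19 for *Plin4*, 0.02 to 0.16 for *Plin5* and 0.11 to 0.25 for *Cidec*. Between the WT sexes they ran from -0.09 to 0.09 for *Pnpla2*, -0.09 to 0.08 for *Lipe*, -0.19 to -0.05 for *Mgll*, -0.11 to 0.15 for *Abhd5*, 0.28 to 0.68 for *G0s2*, -0.14 to 0.00 for *Plin1*, -0.56 to -0.26 for *Plin2*, -0.46 to -0.14 for *Plin4*, -0.59 to -0.35 for *Plin5* and -0.40 to -0.19 for *Cidec*. *Gdf15* ran from -1.71 to -0.94 in males and from -0.54 to -0.36 in females.

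Over the settings that keep all libraries, the log2 differences of the members took these ranges. In males they ran from 0.06 to 0.40 for *Pnpla2*, 0.14 to 0.34 for *Lipe*, 0.19 to 0.36 for *Mgll*, -0.12 to 0.15 for *Abhd5*, 0.34 to 0.58 for *G0s2*, 0.19 to 0.36 for *Plin1*, 0.18 to 0.43 for *Plin2*, -0.10 to 0.08 for *Plin4*, -0.01 to 0.16 for *Plin5* and -0.12 to 0.06 for *Cidec*. In females they ran from -0.14 to 0.09 for *Pnpla2*, -0.46 to -0.30 for *Lipe*, 0.03 to 0.21 for *Mgll*, 0.27 to 0.54 for *Abhd5*, 0.23 to 0.49 for *G0s2*, -0.50 to -0.34 for *Plin1*, -0.13 to 0.02 for *Plin2*, -0.05 to 0.13 for *Plin4*, -0.17 to 0.04 for *Plin5* and 0.01 to 0.31 for *Cidec*. In the interaction they ran from 0.08 to 0.54 for *Pnpla2*, 0.55 to 0.67 for *Lipe*, 0.08 to 0.29 for *Mgll*, -0.54 to -0.39 for *Abhd5*, -0.23 to 0.24 for *G0s2*, 0.63 to 0.88 for *Plin1*, 0.23 to 0.46 for *Plin2*, -0.21 to 0.02 for *Plin4*, 0.06 to 0.42 for *Plin5* and -0.32 to -0.06 for *Cidec*. For the mean KO effect they ran from 0.03 to 0.16 for *Pnpla2*, -0.13 to 0.02 for *Lipe*, 0.14 to 0.28 for *Mgll*, 0.09 to 0.34 for *Abhd5*, 0.34 to 0.48 for *G0s2*, -0.13 to 0.01 for *Plin1*, 0.06 to 0.20 for *Plin2*, -0.05 to 0.09 for *Plin4*, -0.04 to 0.10 for *Plin5* and 0.04 to 0.18 for *Cidec*. Between the WT sexes they ran from -0.09 to 0.28 for *Pnpla2*, -0.09 to 0.12 for *Lipe*, -0.19 to 0.23 for *Mgll*, -0.03 to 0.37 for *Abhd5*, 0.12 to 0.58 for *G0s2*, -0.18 to 0.14 for *Plin1*, -0.48 to -0.30 for *Plin2*, -0.43 to -0.28 for *Plin4*, -0.55 to -0.13 for *Plin5* and -0.36 to 0.11 for *Cidec*.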
